A study of Mus musculus with 6 samples.

Results

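Interleukin 33 (Il33), the chains of its receptor (Il1rl1 and Il1rap) and the SoxF transcription factors (Sox7, Sox17 and Sox18) were followed in isolated mouse pericytes, which are mural cells of small vessels, with and without platelet-derived growth factor BB (PDGF-BB), the ligand by which endothelial cells recruit pericytes. The 6 genes were chosen by name, with the measured difference between PDGF-BB and control already known, because SoxF factors had been proposed to drive Il33 in PDGF-BB-treated pericytes. Of the 6, 5 carried a symbol in the platform annotation and so belonged to the 20239 named genes, each with 1 probe set. The sixth, Il1rl1, was not listed there; its probe set is numbered 17082, which RefSeq's gene table gives as the Entrez number of Il1rl1, and the probe set number equalled the Entrez number in each of the 20239 listed cases. Il1rl1 is therefore given with that reservation, from a fit over all 21225 probe sets.

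Total RNA was measured on 6 one-colour arrays of C57BL/6 pericytes, 3 after 5 days of PDGF-BB at 100 ng/ml and 3 after 5 days as control; the labels do not say what the control cultures received in its place. Nothing in the labels ties the arrays of a group to separate animals or dishes, so every error and p-value covers only how far these 6 samples differ, and that spread may be technical. The array medians of the log2 values lay between 8.43 and 8.46, and arrays of a group correlated across genes at r = 0.994 to 0.996. Values are RMA log2 expression, and a change is PDGF-BB minus control. A group mean under 7.88, the 90th percentile of 19 lymphocyte, innate lymphoid, mast cell and erythroid genes taken as absent, is called dim. That line is approximate, since 3 of those 19 genes lay above it in at least 1 group.

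IL-33 is an alarmin, a nuclear cytokine of the interleukin 1 family that is set free when cells are damaged. It binds ST2, the product of Il1rl1, which then joins the accessory protein encoded by Il1rap and signals through MyD88 and IRAK kinases to NF-κB and MAP kinases. Sox7, Sox17 and Sox18 form the SoxF group of HMG-box transcription factors, best known from endothelial cells, where they act in arterial, venous and lymphatic development.

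Il33, the ligand (Entrez gene 77125), had log2 values of 11.62, 11.49 and 9.84 on PDGF-BB arrays 1, 2 and 3, against 7.48, 7.75 and 6.77 on control arrays 1, 2 and 3. The groups did not overlap, and array 3 was the lowest in both of them. The means were 10.98 ± 0.99 with PDGF-BB and 7.33 ± 0.51 in control (SD, n = 3 each), a log2 change of 3.65 (SE 0.49, 95% interval 2.50 to 4.81). Between arrays of the same number the log2 difference was 4.14, 3.75 and 3.08. Since the control mean was dim, the change is given as at least 8.61-fold, with the dim level standing in for control values under it. By log2 change Il33 stood at rank 1 of the 20239 named genes, which is the value it was chosen with and no test of it.

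RefSeq lists 2 transcription starts of Il33 on the plus strand of chromosome 19 (GRCm38.p6), 20677 bases apart. The 250 bases before each are shown because SoxF factors are proposed to drive Il33, and whether they bind there was not tested. The second window lies inside the gene. Both were searched on both strands for a pair of SOX core words, ACAAT, which the other strand reads as ATTGT, and ACAAAG, which it reads as CTTTGT, and matches would stand in capitals. The array cannot tell which start was used.
Il33 upstream of the first start, chr19:29924863-29925112: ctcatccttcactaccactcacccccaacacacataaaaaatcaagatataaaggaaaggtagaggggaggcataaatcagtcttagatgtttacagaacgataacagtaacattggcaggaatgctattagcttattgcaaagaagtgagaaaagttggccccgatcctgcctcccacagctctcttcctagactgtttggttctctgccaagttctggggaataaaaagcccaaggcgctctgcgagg
Il33 upstream of the second start, chr19:29945540-29945789: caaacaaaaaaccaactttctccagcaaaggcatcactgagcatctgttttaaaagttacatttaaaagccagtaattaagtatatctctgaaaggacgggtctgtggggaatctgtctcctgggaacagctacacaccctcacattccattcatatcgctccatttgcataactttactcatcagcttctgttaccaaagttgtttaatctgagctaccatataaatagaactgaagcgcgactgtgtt
Neither word occurred in either Il33 window, while ACAAT occurred in 27.7% and ACAAAG in 16.5% of 32851 RefSeq windows of the same length, and at least 1 of them in 38.8%. That says only that these letters are not in these 250 bases.

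**Figure D1:**
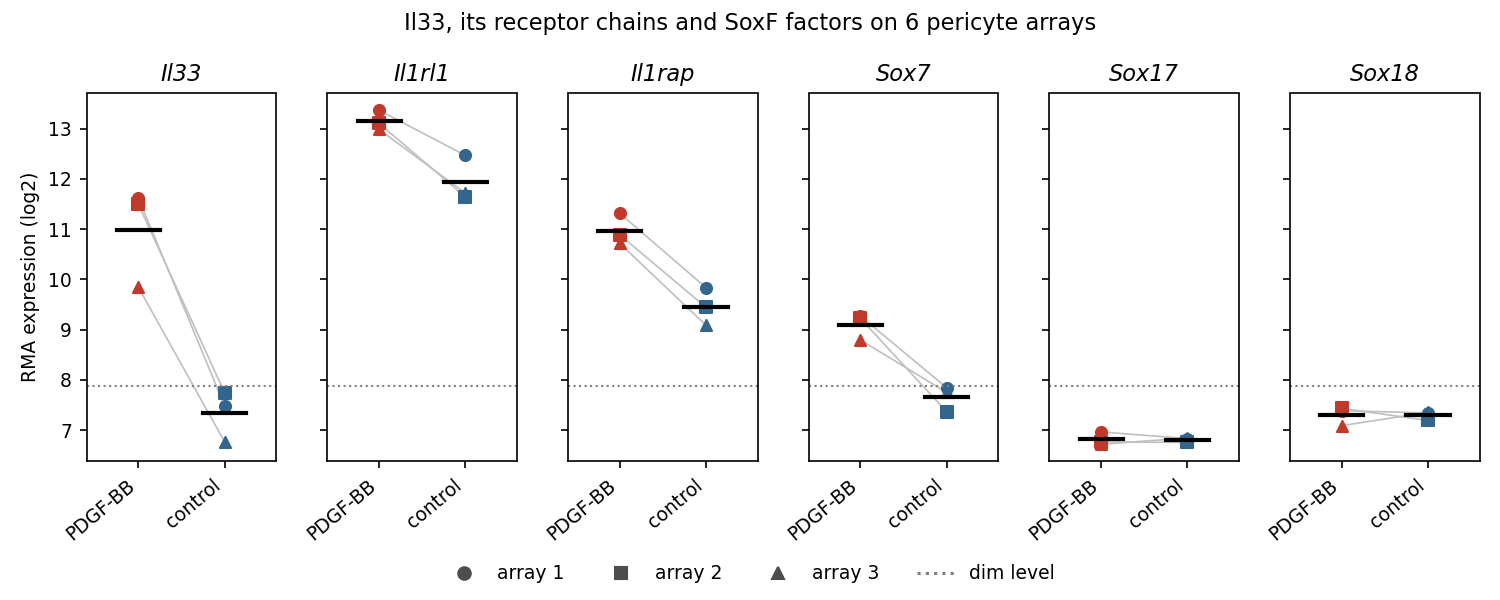
Log2 expression (y axis) of the 6 genes on the 3 PDGF-BB arrays (red) and 3 control arrays (blue); symbols mark the array number, grey lines join arrays of the same number, black bars are group means, and the dotted line is the dim level of 7.88. Il33, Il1rl1, Il1rap and Sox7 lay higher on every PDGF-BB array than on any control array, and Sox17 and Sox18 stayed under the dim level in both groups.

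Il1rl1, which encodes the IL-33-binding chain ST2 (Entrez gene 17082, named through that number alone), had log2 values of 13.37, 13.10 and 12.98 on the PDGF-BB arrays, against 12.47, 11.64 and 11.72 on the control arrays. Every PDGF-BB array lay above every control array, and both groups were far above the dim level. The means were 13.15 ± 0.20 with PDGF-BB and 11.94 ± 0.46 in control (SD, n = 3 each), a log2 change of 1.21 (SE 0.22, 95% interval 0.68 to 1.73), or 2.31-fold. The difference between same-numbered arrays was 0.90, 1.46 and 1.27. Il1rl1 gives rise to the membrane receptor and to a soluble form of ST2 that binds IL-33 without signalling, and the single probe set does not separate them.

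The gene has several starts, and in mouse a distal one is known to be used in mast cells and a proximal one in fibroblasts. RefSeq's window table holds 2 of them on the plus strand of chromosome 1, 10059 bases apart. The 250 bases before each are shown because they differ in SOX core words, which stand in capitals.
Il1rl1 upstream of the first start, chr1:40429320-40429569: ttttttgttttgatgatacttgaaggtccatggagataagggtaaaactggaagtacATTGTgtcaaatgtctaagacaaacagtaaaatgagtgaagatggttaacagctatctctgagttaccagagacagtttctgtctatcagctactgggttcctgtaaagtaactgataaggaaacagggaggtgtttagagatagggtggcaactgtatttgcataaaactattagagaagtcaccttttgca
Il1rl1 upstream of the second start, chr1:40439379-40439628: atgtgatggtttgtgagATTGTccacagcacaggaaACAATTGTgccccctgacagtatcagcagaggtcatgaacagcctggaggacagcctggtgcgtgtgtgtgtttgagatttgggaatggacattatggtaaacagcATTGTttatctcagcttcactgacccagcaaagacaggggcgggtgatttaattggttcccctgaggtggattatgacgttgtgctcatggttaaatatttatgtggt
The first window held 1 ACAAT match and the second held 4, of which 2 overlap on opposite strands within the 8-letter run; ACAAAG occurred in neither. These are matches of letters, not binding sites.

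Il1rap, the accessory chain that IL-33, IL-1 and IL-36 receptors share (Entrez gene 16180), had log2 values of 11.31, 10.89 and 10.71 on the PDGF-BB arrays, against 9.83, 9.44 and 9.09 on the control arrays. The groups did not overlap, and the arrays kept the same order in both, with array 1 highest and array 3 lowest. The means were 10.97 ± 0.31 with PDGF-BB and 9.46 ± 0.37 in control (SD, n = 3 each), a log2 change of 1.52 (SE 0.22), or 2.86-fold. Same-numbered arrays differed by 1.48, 1.44 and 1.63. Il1rap also yields membrane and soluble forms that 1 probe set does not separate. The 250 bases before its listed start, on chromosome 16, held neither SOX word.

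Of the SoxF factors, Sox7 (Entrez gene 20680) had log2 values of 9.27, 9.22 and 8.79 on the PDGF-BB arrays, against 7.84, 7.37 and 7.75 on the control arrays. The groups did not overlap, and all 3 control arrays lay under the dim level. The means were 9.10 ± 0.26 with PDGF-BB and 7.65 ± 0.25 in control (SD, n = 3 each), a log2 change of 1.44 (SE 0.17, 95% interval 1.05 to 1.84), or at least 2.32-fold with the dim level in place of the control values. Same-numbered arrays differed by 1.42, 1.86 and 1.05.

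Sox17 (Entrez gene 20671), an endoderm and arterial factor, had log2 values of 6.96, 6.77 and 6.72 on the PDGF-BB arrays, against 6.83, 6.75 and 6.84 on the control arrays. Sox18 (Entrez gene 20672), a factor of lymphatic development, had log2 values of 7.39, 7.43 and 7.09 on the PDGF-BB arrays, against 7.34, 7.19 and 7.35 on the control arrays. In both genes the groups overlapped and both means were dim. The log2 change was 0.01 for Sox17 (SE 0.08, 95% interval -0.18 to 0.19) and 0.01 for Sox18 (SE 0.10, 95% interval -0.24 to 0.25). At such levels a change in a scarce transcript may go unseen, so these intervals bound only the measured signal.

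Of the 5 members with a symbol in the annotation, 3 (Il33, Il1rap and Sox7) were among the genes called higher in limma at an adjusted p under 0.05, against 10.1% of the 20239 genes tested, and the other 2 were not called. Il1rl1 was called higher in the fit over all probe sets, in which 9.97% were. The PDGF-BB arrays lay wholly above the control arrays in 4 of the 6 members, as in 16.9% of the named genes. Because the members were chosen with this contrast known, nothing is read from these counts. In bulk RNA, more cells of a kind and more RNA per cell cannot be told apart.

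Likeness was measured as the root-mean-square difference between 2 genes over the 6 arrays, in log2 units, after centring each gene on its own mean, for members that spanned over 1 log2 unit; it reflects mostly the group difference. The genes most like Il33 were Oas2 (0.51), Irf7 (0.54), Ifi213 (0.56), Slc7a11 (0.61) and Ifi208 (0.62). For Sox7 they were Oas1a (0.12), Mpeg1 (0.14), Cp (0.15), Xylt1 (0.16) and Gja1 (0.17). Il1rl1 was closest to Hsd11b1 (0.12), Mthfd1l (0.13), Dkc1 (0.15), Dck (0.15) and Creb5 (0.15), and Il1rap to Lrrn3 (0.10), Slc7a5 (0.14), Trip13 (0.14), Il18rap (0.16) and Ticrr (0.17). Among the members, Il1rl1 and Il1rap differed by 0.22, Il1rl1 and Sox7 by 0.24, and Il1rap and Sox7 by 0.26, whereas Il33, whose change was larger, stood 1.18 to 1.36 from those 3.

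Among the other IL-1 family ligands and antagonists, 1 of 9 measured genes rose and 1 fell in limma, beside 21.5% of all genes called in either direction, and the list's median log2 change was 0.00 against -0.02 over all genes. Il18bp, the secreted decoy that binds IL-18, rose 1.58-fold, with log2 values of 9.91, 9.91 and 9.49 on the PDGF-BB arrays, against 8.97, 9.19 and 9.17 in control (log2 change 0.66, SE 0.13, adjusted p = 0.012, limma). Il1rn, the IL-1 receptor antagonist, fell 1.72-fold, with log2 values of 11.75, 11.58 and 11.23 on the PDGF-BB arrays, against 12.28, 12.37 and 12.27 in control (log2 change -0.78, SE 0.13, adjusted p = 0.0065). The remaining 7, which include the ligands Il1a, Il1b and Il18 and the IL-36 genes Il1f6, Il1f8 and Il1f9, were dim in both groups and did not pass. Il18 had an adjusted p of 0.071, and passed as lower once the arrays were paired by number (0.033) and once control array 3 was left out (0.014).

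Of the 8 other receptor chains of the family, 2 rose and none fell in limma, beside 21.5% of all genes called in either direction. The list's median log2 change was 0.05, against -0.02 over all genes. Only those same 2 had an unadjusted p under 0.05. Il18rap, the accessory chain of the IL-18 receptor, rose at least 2.02-fold, with log2 values of 9.27, 8.71 and 8.70 on the PDGF-BB arrays, against 7.65, 7.02 and 6.67 in control (log2 change 1.78, SE 0.26, adjusted p = 0.0046). Il1r1, the signalling receptor of IL-1, rose 1.37-fold, from tightly spaced arrays in both groups (12.36 ± 0.03 with PDGF-BB and 11.90 ± 0.08 in control, SD, n = 3 each, log2 change 0.46, adjusted p = 0.0037, limma). Il18r1, the ligand-binding partner of Il18rap, was dim in both groups and had a log2 change of 0.06 (adjusted p = 0.54, limma). Sigirr, an inhibitory receptor of the family that dampens IL-33 signalling, had a log2 change of -0.06 (adjusted p = 0.51).

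**Figure D2:**
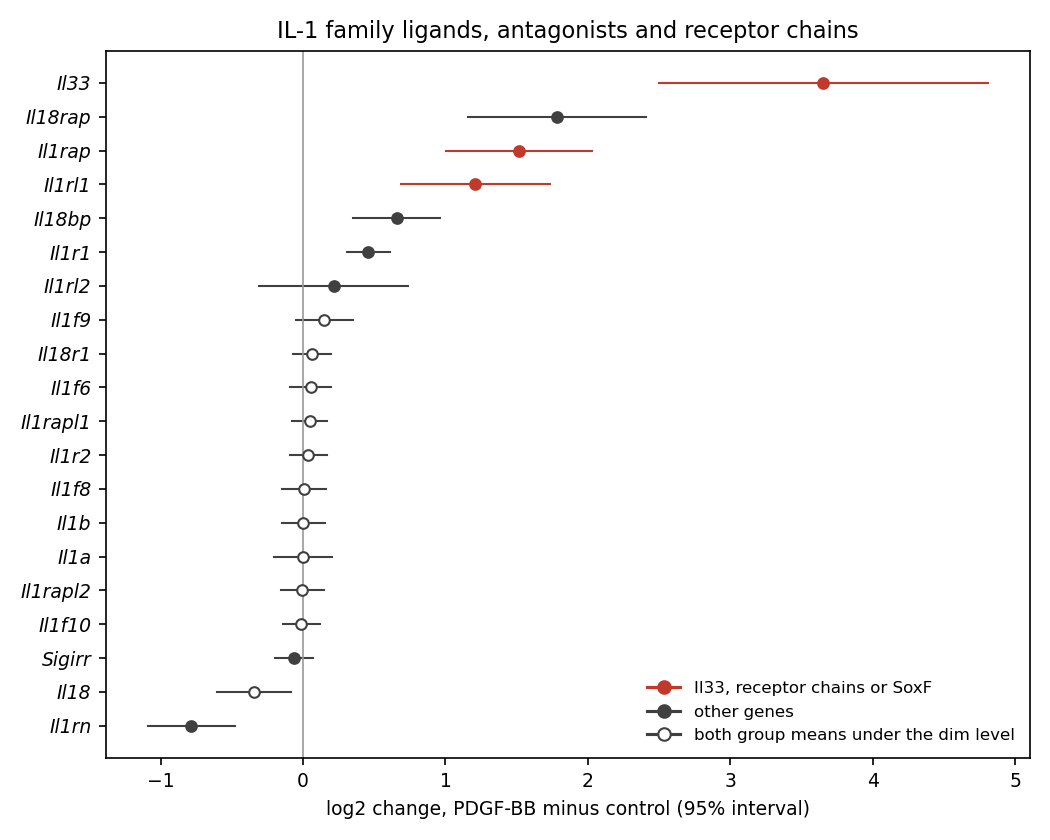
Log2 change, PDGF-BB minus control, with its 95% interval (x axis) for Il33, Il1rl1 and Il1rap (red) and the other measured ligands, antagonists and receptor chains of the IL-1 family (dark), sorted by change; open symbols mark genes dim in both groups. Il33, Il18rap, Il1rap and Il1rl1 lie at 1.21 to 3.65 and Il1rn at -0.78. Of the dim genes, Il18 lies at -0.34 and the others around 0.

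Il1rl1 lies on chromosome 1 in a row of related receptor genes, which RefSeq's table orders as Il1r2, Il1r1, Il1rl2, Il1rl1, Il18r1 and Il18rap. Its direct neighbours did not pass the test. Il1rl2, the IL-36 receptor, had log2 values of 10.13, 10.52 and 10.84 on the PDGF-BB arrays, against 9.89, 10.52 and 10.43 in control, with overlapping groups (log2 change 0.22, 95% interval -0.31 to 0.74). Il18r1, on the other side, is given above. Il1r2, the decoy receptor of IL-1 at the end of the row, was dim in both groups with a log2 change of 0.04. Between same-numbered arrays the differences of Il18rap were 1.61, 1.69 and 2.03.

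**Figure D3:**
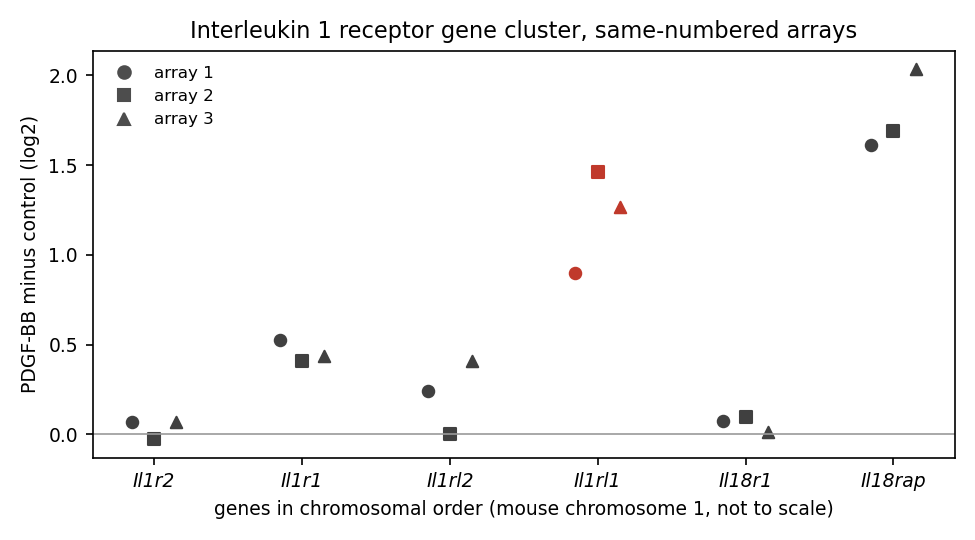
Difference between the PDGF-BB and the control array of the same number, in log2 units (y axis), for the receptor genes of the chromosome 1 cluster in chromosomal order (x axis, not to scale); symbols mark the array number and Il1rl1 is red. Il1rl1 and Il18rap lie at 0.90 to 2.03 in all 3 pairs, while Il18r1 between them lies at 0.01 to 0.10.

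Over all 6 members, 1 of the 12 nearest measured genes on either side was called in limma, against 21.5% of all genes. That gene was Tcea2, a transcription elongation factor next to Sox18, which fell (log2 change -0.42, SE 0.07, adjusted p = 0.0070). The neighbours of Il33, Ranbp6 and Trpd52l3, had log2 changes of -0.01 and -0.04. Trpd52l3 was dim in both groups, as were Il18r1, Tmem207, Gmnc, 4930578I06Rik and Rp1 beside other members. At such levels a change may go unseen. Pinx1, a telomerase inhibitor beside Sox7, had a log2 change of 0.21 (adjusted p = 0.17, limma).

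In the list of IL-33 receptor signalling through MyD88, 17 genes were measured and none was dim in both groups. Of these, 2 rose, 4 fell and 11 did not pass, beside 21.5% of all genes called in either direction. The list's median log2 change was -0.09, against -0.02 over all genes. Myd88, the adaptor that ST2 and Il1rap recruit, rose 1.28-fold (11.94 ± 0.09 with PDGF-BB and 11.59 ± 0.06 in control, SD, n = 3 each, adjusted p = 0.012, limma). Irak1, a kinase downstream of it, had an adjusted p of 0.027 and a log2 change of 0.22, but its call was lost without any 1 of the 6 arrays (0.052 to 0.085) and in the fit that paired the arrays by number (0.052). Irak2, a related kinase, fell 1.51-fold (log2 change -0.59, adjusted p = 0.014, limma) and Ikbkg, the regulatory subunit of the IκB kinase complex, fell 1.31-fold (log2 change -0.39, adjusted p = 0.0045). The other 2 that fell, named after their values were seen, were Nfkbia and Mapk8, and both calls were lost without PDGF-BB array 1 or control array 1 or 2. Without PDGF-BB array 1 or control array 2 that left 2 genes lower, and without control array 1 Irak3 was called lower as well (0.030). Rela, the main NF-κB subunit measured here, had a log2 change of -0.07 (adjusted p = 0.50).

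Proteases and oxidases that process or inactivate IL-33 were dim in both groups in all 10 measured cases, including mast cell Cma1 and neutrophil Elane. Among them, Mcpt4 and Tpsb2 also belong to the genes that set the dim level. Duox1, an epithelial NADPH oxidase, was the 1 gene called (log2 change -0.20, adjusted p = 0.049, limma), a call lost without any 1 array (0.067 to 0.15) and in the paired fit (0.085). Without PDGF-BB array 1 Prtn3 was called in its place (0.036). Of 7 other alarmins, 1 rose: Hspd1, a mitochondrial chaperone, 1.58-fold (adjusted p = 0.0027). Among the type 2 cytokines and chemokines that IL-33 is known to evoke in immune cells, 2 of 11 rose and none fell in limma. Only those same 2 had an unadjusted p under 0.05. Beside each of these lists, 21.5% of all genes were called in either direction. Ccl11, the eosinophil chemoattractant eotaxin, rose 4.02-fold, with log2 values of 10.39, 11.18 and 10.49 on the PDGF-BB arrays, against 8.92, 8.55 and 8.56 in control (log2 change 2.01, SE 0.21, adjusted p = 0.0018). Ccl2, a monocyte chemoattractant, rose 1.67-fold (adjusted p = 0.0015), and Il4, Il5, Il6 and Il9 were dim in both groups. Il5 and Il13 were themselves among the genes that set the dim level. Il13 lay just above it in both groups, with log2 means of 7.99 with PDGF-BB and 7.99 in control.

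Of the 17 other SOX factors, 1 rose, 2 fell and 14 did not pass, beside 21.5% of all genes called in either direction. The list's median log2 change was -0.05, against -0.02 over all genes. Sox9, the factor of cartilage and of several progenitor cells, rose 1.62-fold, with log2 values of 11.68, 11.95 and 11.48 on the PDGF-BB arrays, against 11.07, 11.06 and 10.91 in control (log2 change 0.69, SE 0.12, adjusted p = 0.0081, limma). Sox4, a SoxC factor, fell 1.85-fold, with log2 values of 10.68, 10.60 and 10.54 on the PDGF-BB arrays, against 11.54, 11.51 and 11.41 in control (log2 change -0.89, SE 0.07, adjusted p = 7.2e-04). Sox11, its relative, was dim in both groups and had a log2 change of -0.31 (adjusted p = 0.013). Several SOX genes known for other lineages, such as Sox1 and Sox3, measured above the dim level in both groups, so being above that line is not by itself evidence that a gene was expressed.

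**Figure D4:**
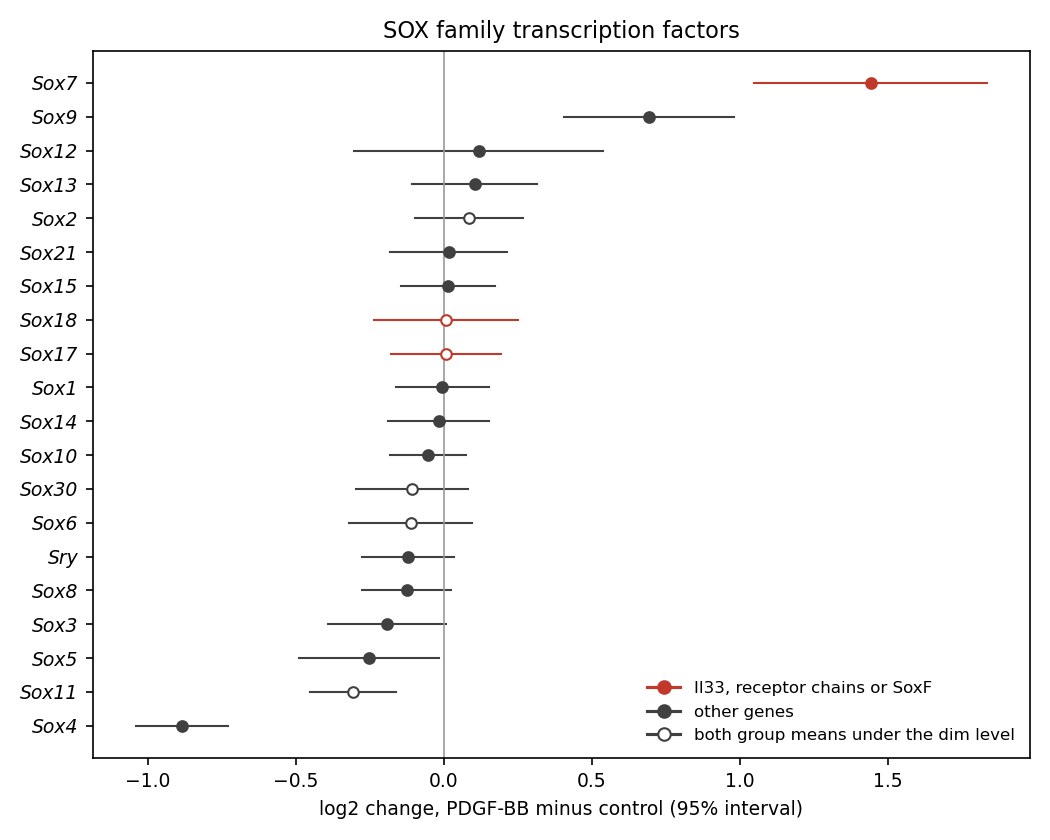
Log2 change, PDGF-BB minus control, with its 95% interval (x axis) for the 3 SoxF factors (red) and the 17 other SOX genes (dark), sorted by change; open symbols mark genes dim in both groups. Sox7 lies at 1.44 and Sox9 at 0.69, Sox17 and Sox18 lie at 0.01, and Sox4 at -0.89.

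SoxF proteins bind β-catenin and can restrain TCF-driven transcription. Of 6 measured partners and TCF factors, 2 fell and none rose: Tcf7l2, a TCF factor, 1.80-fold (log2 change -0.85, SE 0.12, adjusted p = 0.0044, limma) and Tcf7l1, its relative, 1.29-fold (log2 change -0.36, adjusted p = 0.012). Rbpj, the Notch effector, had an adjusted p of 0.059, and was called higher without control array 3 (0.044). Ctnnb1, β-catenin itself, had a log2 change of 0.01 (95% interval -0.14 to 0.15). Of 10 genes reported as SoxF targets, mostly from endothelial cells, 2 rose and 1 fell, and 6 were dim in both groups. Beside this list and that of the partners, 21.5% of all genes were called in either direction. Efnb2 and Notch1, arterial and Notch pathway genes, rose 1.45-fold and 1.42-fold (adjusted p = 0.039 and 0.046), and each call was lost without 4 of the 6 arrays; without PDGF-BB array 1 or 3 or control array 2 neither was called. Without PDGF-BB array 3 the 1 gene of this list called higher was Cdh5 (0.0053). Vcam1, an adhesion molecule, fell 1.84-fold (log2 change -0.88, SE 0.11, adjusted p = 0.0026).

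Since SoxF factors mark endothelial cells, 20 endothelial markers were set beside Sox7. Of these, 1 rose and none fell, beside 21.5% of all genes called in either direction. Dim in both groups were 14, among them Pecam1, Kdr, Tie1, Emcn and Tek. The other 6, Eng, Egfl7, Plvap, Flt1, Flt4 and Nos3, lay above the dim level in both groups. Egfl7 was higher on every PDGF-BB array than on any control array, but did not pass (log2 change 0.16, adjusted p = 0.20, limma). The mean log2 value of the list was 7.56 to 7.65 on the PDGF-BB arrays and 7.58 to 7.60 on the control arrays, so the groups overlapped. Plvap, a protein of fenestrated endothelium, was called higher (log2 change 0.33, adjusted p = 0.038, limma), a call lost without 5 of the 6 arrays (0.087 to 0.11). Cdh5, VE-cadherin, was dim in both groups with log2 values of 7.80, 7.88 and 7.24 on the PDGF-BB arrays, against 7.23, 7.14 and 7.21 in control (log2 change 0.45, adjusted p = 0.10), and was called without PDGF-BB array 3 (0.0053). That array was also the lowest of its group for every member, including Sox17 and Sox18, which were dim in both groups.

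**Figure D5:**
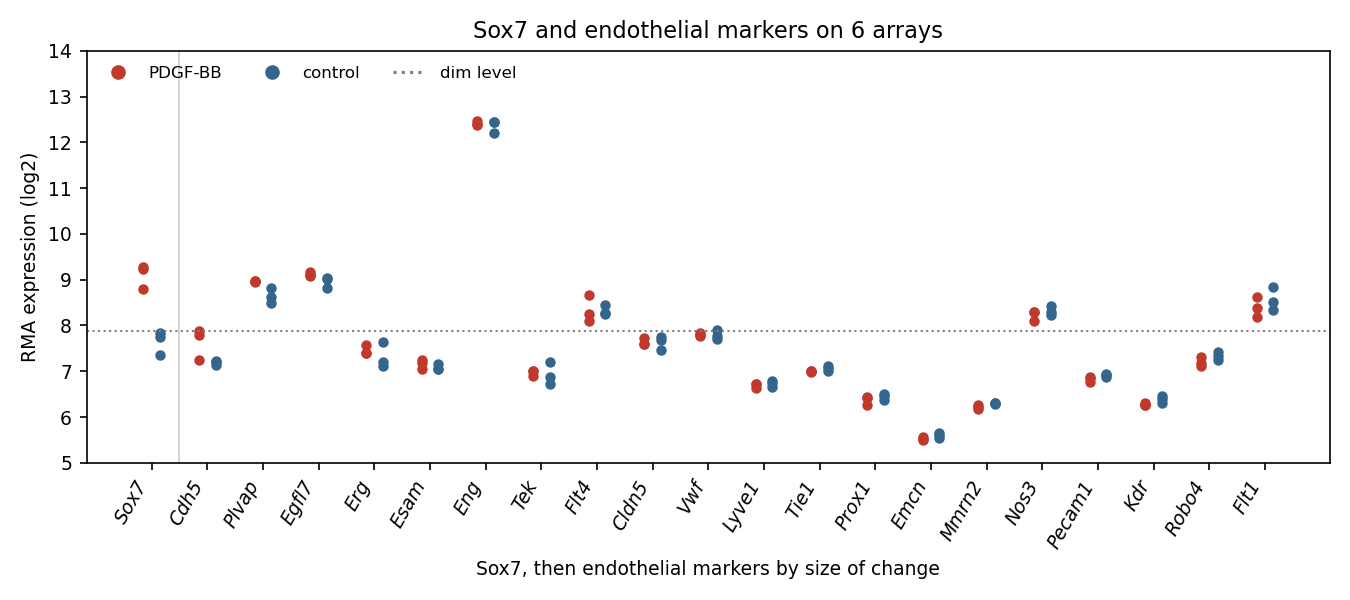
Log2 expression (y axis) of Sox7 and of 20 endothelial markers, sorted by change, on the 3 PDGF-BB arrays (red) and the 3 control arrays (blue), with the dim level dotted. Sox7 is separated between the groups, most endothelial markers lie under the dim level of 7.88 in both groups, and Eng, which lies far above it, overlaps.

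Other cell types that carry ST2 or IL-33 were checked in the same way, and their part in the results was not tested. Over all genes, 21.5% were called in either direction. Of 19 lymphocyte, innate lymphoid, mast cell and erythroid markers limma called none, and 0 of them reached an unadjusted p under 0.05. These are the genes that were taken as absent to set the dim level. Of 14 macrophage markers 2 rose and 2 fell, while 11, including Adgre1 and Csf1r, were dim in both groups; Mpeg1 and Lyz2 were called in opposite directions under the dim level (log2 changes 1.40 and -0.49), Cd14 rose 1.74-fold and Cd68 fell 1.34-fold, a call lost without PDGF-BB array 1 or 2. The mean log2 value of the macrophage list was 6.77 to 6.92 on the PDGF-BB arrays and 6.74 to 6.77 on the control arrays. Limma called none of 7 epithelial markers, 0 of which reached an unadjusted p under 0.05. Of 6 adipocyte markers 2 rose, Fabp4 8.14-fold and Pparg 1.97-fold, while Adipoq and Lep were dim in both groups, and that list's mean was 8.26 to 8.37 on the PDGF-BB arrays and 7.55 to 7.78 on the control arrays. Of 15 pericyte markers 1 rose (Anpep) and 2 fell (Acta2 and Cd248), and 7 were dim in both groups, among them Rgs5, Des and Kcnj8, although Pdgfrb had a log2 mean of 12.85 with PDGF-BB and 12.98 in control. The call of Acta2 was lost without 4 of the 6 arrays (PDGF-BB array 1 or any control array) and that of Cd248 without 5 of them (all but control array 1), so that neither was called without PDGF-BB array 1 or control array 2 or 3. Without PDGF-BB array 1 Kcnj8 was called lower instead (0.044). The paired fit added 1 call in each direction: Cspg4, which encodes the proteoglycan NG2, was called higher (0.015, and 0.021 without PDGF-BB array 3), and Mcam, an adhesion molecule, was called lower (0.023, against 0.15 without pairing, log2 change -0.52).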

How the data were processed

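The authors deposited log2 values of 21225 probe sets on 6 arrays, which the submitters' processing notes credit to RMA; the software, its version, the probe set definition and the build were not given in the sources used here. RMA corrects background, quantile-normalizes the arrays and summarises each probe set, so a change is read against the bulk of genes. Groups and replicate numbers came from the sample titles. Symbols came from GEO's platform annotation (20239 probe sets, 1 symbol each; 986 unnamed) and sequences from RefSeq (GRCm38.p6), which gave windows for Il33, Il1rl1 and Il1rap.

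All named genes were fitted with limma 3.58.1 in R 4.3.3 (lmFit, eBayes, group as the only factor, no filter, two-sided), with p-values Benjamini-Hochberg adjusted over 20239 genes and called under 0.05; the fit was tested on simulated data. The members and the 15 lists (166 of 178 genes measured under a symbol or a synonym) were chosen with earlier results of these data known, so members get no p. Lists are described by counts and medians, and they overlap. Named were the 6 members, up to 4 called genes of a list with the smallest p, the 5 genes most like a member, direct neighbours, and a few non-passing or dim members given as values. Where the lower mean was dim, the fold is a bound, and where both were, no fold is given. What was left after subtracting group means correlated across genes at 0.25, 0.32 and 0.25 between arrays numbered 1, 2 and 3 alike, and at -0.28 to 0.01 otherwise. Deviations from a group mean cancel within the group, so higher values between like numbers force lower ones elsewhere. The numbers may therefore pair the arrays, but the labels do not say so. What like-numbered arrays share was not tested. The paired fit, with the array number as a block, is given where it changes a call. The standard errors and intervals printed here come from the fit with group as the only factor, which leaves any such pairing out. There is no read depth, and 3 arrays a group limit the precision. No scan date or slide was used.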

Additional observations from a re-analysis of the deposited data

How the results depend on the processing

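Repeating quantile normalization, centring arrays on the median or 75th percentile, and array weights gave log2 changes of 3.64 to 3.79 for Il33, 1.19 to 1.23 for Il1rl1, 1.50 to 1.54 for Il1rap, 1.43 to 1.49 for Sox7 and -0.01 to 0.04 for Sox17 and Sox18, all within the spread between replicates. The replicate block, a trended robust variance, unnamed probe sets and a filter on mean signal at its 50th percentile cannot alter a difference of group means in this balanced design, so the members' changes are the same there by construction and say nothing of stability. The filter left out Sox7, Sox17 and Sox18, which then have no value. Leaving out 1 array gave 3.34 to 4.22 for Il33, 1.06 to 1.47 for Il1rl1, 1.33 to 1.71 for Il1rap, 1.30 to 1.59 for Sox7, -0.07 to 0.06 for Sox17 and -0.06 to 0.11 for Sox18. With the 75th or 95th percentile as the dim level, the fold was 12.6 or at least 7.82 for Il33 and 2.72 or at least 2.11 for Sox7. At the 75th percentile, a level of 7.29, Sox18 was no longer dim (means 7.30 with PDGF-BB and 7.30 in control), whereas Sox17 still was.

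Over all genes 2037 rose and 2305 fell, and with the replicate block 2213 rose and 2528 fell. Leaving out 1 array gave 1420 to 2031 that rose and 1514 to 2188 that fell, the lowest counts of falls being 1516 and 1514 without PDGF-BB array 1 and 2, where fewer arrays were fitted. Over the 9 pathway lists 11 genes rose and 11 fell, with 8 to 10 in each direction when 1 array was left out. Counts of single lists, taken 1 direction at a time, moved by over 1.5 times in 52 cases, each with 0 to 4 calls in that direction. The calls that turned on the block or on 1 array are named beside their lists, and the causes were not tested. With 3 arrays a group, dim genes such as Sox17 and Sox18 limit what can be seen.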
